A study of Mus musculus with 12 samples.

Results

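Heat shock proteins and their DnaJ cochaperones fold newly made proteins, hold damaged ones and guide them to degradation. The genes were taken by symbol: protein-coding genes named Hspa, Hspb, Hspd, Hspe or Hsph with a number, Hsp90, or Dnaja, Dnajb or Dnajc with a number. The rule, which used no measured value, found 72 genes among 57009 gene identifiers. They were 14 genes of the Hsp70 and Hsp110 family, 3 Hsp90 genes, 2 chaperonin genes (Hsp60 and Hsp10), 8 small heat shock genes, and 4 DnaJA, 13 DnaJB and 28 DnaJC genes. A further 14 rows matched by name but were processed pseudogenes and were left out. Hspb11 matches by symbol and encodes a protein of intraflagellar transport, so for that gene the name of the set is not a description of function.

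The genes were followed in dendritic cells (DCs), the cells that present antigen to T cells, from the spleens of C57BL/6 (B6) mice. The mice of all groups had been injected with B16 melanoma cells secreting Flt3 ligand, which makes DCs multiply, and their spleen cells were depleted of T, B and NK cells and macrophages with beads. DCs were cultured for 3 h alone (DC only), with lipopolysaccharide, a bacterial ligand of a Toll-like receptor (LPS, dose not given in the sources used here), with B6 syngeneic memory T cells (SynTem), or with memory T cells specific for alloantigen, from BALB/c mice (AlloTem), and were then sorted on CD11b and CD11c. Each of the 4 groups had 3 libraries, named here by group and replicate number. Whether the libraries of a group came from separate cultures or animals is not stated, so the p-values rest on how far these libraries differ, and that spread may be technical in part. The strain of the T cells and their recognition of the DCs cannot be told apart in AlloTem. The deposited batch number, from 1 to 3, was the same as the replicate number for 12 of 12 libraries, and what a batch stands for is not stated.

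Hsp70 proteins bind exposed stretches of unfolded protein in a cycle driven by ATP. J domain proteins, the products of the DnaJ genes, bring clients to Hsp70 and start ATP hydrolysis, and Hsp110 proteins help to release the ADP. Hsp90 acts on late folding states of kinases and receptors, Hsp60 with Hsp10 folds proteins inside mitochondria, and small heat shock proteins hold unfolded proteins without ATP. Under heat or protein damage, heat shock factor 1 switches on genes such as Hspa1a, Hspa1b, Hspb1, Hsph1 and Dnajb1 through repeats of the bases GAA and TTC, called heat shock elements. Members in the endoplasmic reticulum answer to the unfolded protein response. In DCs, chaperones also take part in antigen processing and in the secretion of cytokines.

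Promoter sequences are shown for some members, from RefSeq's tables for the mouse build GRCm38.p6. All of them hold letters that were searched for, and several members described below are not among them. The first pair is Hspa1a and Hspa1b, the heat-inducible Hsp70 genes, whose near identity bears on how their reads can be told apart. The 250 bases before each start lie on the minus strand at chr17:34972157-34972406 and chr17:34959239-34959488, where GENCODE annotates no exon. Capitals mark a heat shock element of 2 units, GAANNTTC:
Hspa1a: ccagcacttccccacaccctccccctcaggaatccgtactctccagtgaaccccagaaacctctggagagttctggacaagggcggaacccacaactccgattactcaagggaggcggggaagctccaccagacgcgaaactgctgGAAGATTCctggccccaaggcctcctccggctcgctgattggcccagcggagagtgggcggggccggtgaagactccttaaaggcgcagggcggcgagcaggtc
Hspa1b: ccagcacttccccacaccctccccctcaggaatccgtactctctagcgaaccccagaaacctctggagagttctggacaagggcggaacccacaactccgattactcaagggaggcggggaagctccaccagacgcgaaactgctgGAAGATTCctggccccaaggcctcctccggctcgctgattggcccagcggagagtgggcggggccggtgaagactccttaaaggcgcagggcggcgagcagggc
They were identical at 247 of 250 bases. The differences were C44T, T47C and T249G, written as the Hspa1a base, the position from 1 at the 5′ end, and the Hspa1b base. The element lay at bases -104 to -97 from the start in both genes.

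Windows of 300 bases (250 before and 50 after a start) were available for 58 of the 72 members, 75 windows in all, some of which overlap. Both strands were searched for the 2-unit letters GAANNTTC or TTCNNGAA, and for the 3-unit letters, GAA, TTC and GAA or TTC, GAA and TTC with 2 bases of any kind (N) between units, which contain the 2-unit letters. The 2-unit letters were found for 16 members, in 24.0% of member windows and in 15.056% of all 32851 windows. The 3-unit letters were found for Dnajb6, Hspd1, Hspe1 and Hsph1, in 8.0% of member windows and in 0.603% of all windows. Hspd1 and Hspe1 face away from each other and share their site, which holds 2 overlapping 3-unit matches. The site is shown in stretches of 30 bases for Hspe1 (chr1:55088051-55088080, plus strand, in an annotated exon of Hspd1), Hsph1 (chr5:149636287-149636316, minus strand, 20 to 49 bases after its start) and Dnajb6 (chr5:29735844-29735873, plus strand), beside a 2-unit element of Dnaja1 (chr4:40722333-40722362, plus strand). GENCODE exons also overlap the stretches of Dnajb6 and Dnaja1. Capitals mark the letters found:
Hspe1: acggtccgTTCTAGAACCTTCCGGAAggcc
Hsph1: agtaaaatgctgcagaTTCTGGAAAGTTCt
Dnajb6: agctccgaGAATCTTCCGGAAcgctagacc
Dnaja1: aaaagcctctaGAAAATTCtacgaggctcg
The endoplasmic reticulum stress element, CCAAT and CCACG with 9 bases of any kind between them, or the reverse complement, is read by factors of the unfolded protein response. The element was found for Hspa5, Hsp90b1 and Dnajc3, in 4.0% of member windows and in 0.119% of all windows. Hsp90b1 held 2 copies. The stretches lie at chr2:34772020-34772049 (plus strand) for Hspa5, chr10:86705632-86705661 and chr10:86705527-86705556 (minus strand) for Hsp90b1, and chr14:118937822-118937851 (plus strand) for Dnajc3:
Hspa5: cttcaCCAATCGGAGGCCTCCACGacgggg
Hsp90b1: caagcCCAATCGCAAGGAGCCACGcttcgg
Hsp90b1: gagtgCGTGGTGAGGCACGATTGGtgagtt
Dnajc3: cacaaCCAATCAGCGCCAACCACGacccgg
A match describes letters in a window and not the binding of a factor.

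The 12 libraries held 13903574 to 21861156 counts each. The unit of levels is CPM, counts set against one library total for all after TMM adjustment (trimmed mean of M values). DC markers were present in every library: Itgax (CD11c) was at 261.2 to 470.2 CPM, Itgam (CD11b) at 148.1 to 350.7 CPM and Flt3 at 316.1 to 460.5 CPM. None of 23 T cell markers was at 0 over the series, and their summed level was 83.3 to 124.4 CPM in DC only, 87.7 to 208.9 CPM in LPS, 341.0 to 734.8 CPM in SynTem and 174.0 to 329.7 CPM in AlloTem. Markers of other cells were uneven too: over the 12 libraries the sum of 8 NK cell markers was 115.3 to 948.5 CPM, that of 10 macrophage markers 114.0 to 355.3 CPM, that of 8 B cell markers 270.2 to 443.4 CPM and that of 7 plasmacytoid DC markers 379.8 to 800.2 CPM. The sum of 8 neutrophil markers was 866.0 CPM in SynTem 3 and 27.2 to 202.5 CPM in the others. In bulk RNA, fewer cells of a type and less RNA per cell cannot be told apart. The summed level of 4 Y-linked transcripts was 130.9 to 219.6 CPM in 5 libraries, the 4 of batch 3 and SynTem 2, and 0 to 10.3 CPM in the 7 others. SynTem 2 also stood apart in its deviations from the group mean, which correlated at 0.388 to 0.476 with DC only 3, LPS 3 and AlloTem 3 and at -0.249 to -0.00894 with DC only 2, LPS 2 and AlloTem 2. DC only 2 and SynTem 3 correlated with libraries of their own batch at no more than 0.143 and 0.119.

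Chaperone transcripts formed a similar share of the counts in all 4 cultures. Members held 0.841% to 0.931% of a library's counts. The group means were 0.902% ± 0.0141 in DC only, 0.922% ± 0.00784 in LPS, 0.883% ± 0.0424 in SynTem and 0.900% ± 0.0230 in AlloTem (SD, n = 3 each). The constitutive cytosolic chaperones Hspa8 (Hsc70) and Hsp90ab1 (Hsp90 beta) together made up 36.7% to 44.0% of those counts.

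Levels of different genes can be compared only per length. Per kilobase of exon, the mean level was 519.6 CPM for Hspa8 and 486.9 CPM for Hsp90ab1. Hspa5 (BiP, the Hsp70 of the endoplasmic reticulum) was next at 164.4 CPM per kilobase, before Hsp90aa1 (the inducible Hsp90) at 128.6 and Hsp90b1 (Grp94, the Hsp90 of the endoplasmic reticulum) at 107.1 CPM per kilobase. Heat-inducible Hspa1a and Hspa1b stood at 57.4 and 54.8 CPM per kilobase, close to Hspa9 (mortalin, the Hsp70 of mitochondria) at 62.0. At the low end were Dnaja4, a DnaJA cochaperone, at 0.379 and Dnajc6 (auxilin, which uncoats clathrin vesicles with Hsc70) at 0.258 CPM per kilobase.

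**Figure D1:**
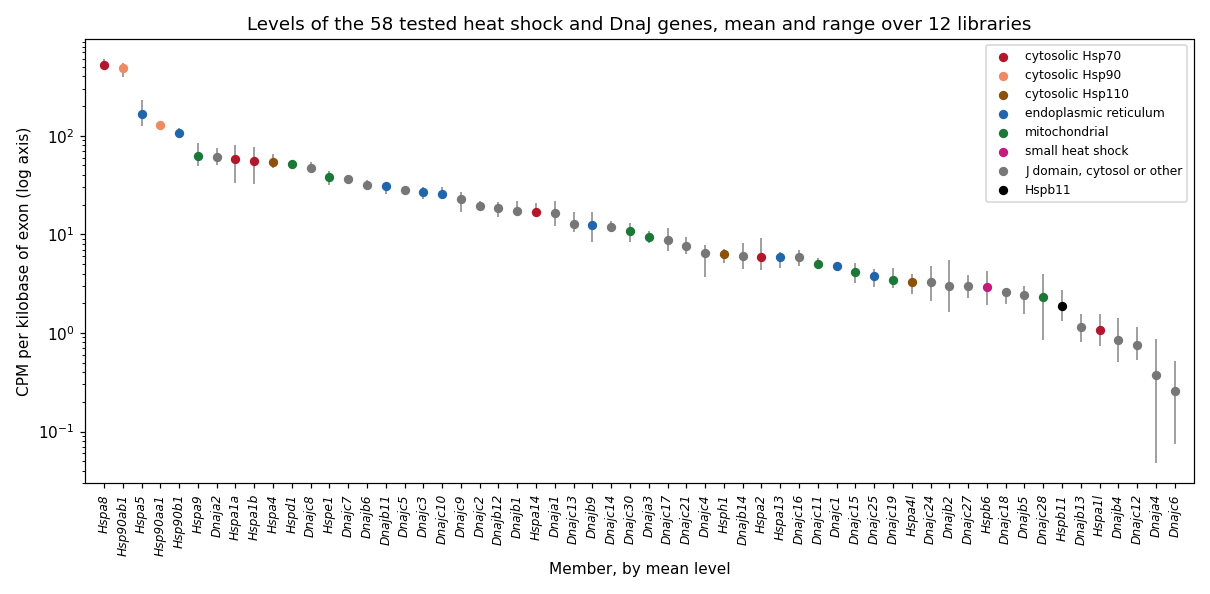
Level of each of the 58 tested members in CPM per kilobase of exon, on a log axis, coloured by role; points are means and lines run from the lowest to the highest of the 12 libraries. Hspa8 at 519.6 and Hsp90ab1 at 486.9 stand above all other members, and Dnajc6 at 0.258 is the lowest.

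Of the 72 members, 58 had enough counts to be tested, at the filter given under the processing, and 14 did not. There were 6 with 0 counts in every library: Dnajb8, Dnajc5b, Dnajc5g, Hspb3, Hspb7 and Hspb8. The other 8 (Dnajb3, Dnajb7, Dnajc22, Hspa12a, Hspa12b, Hspb1, Hspb2 and Hspb9) had at most 68 counts over the 12 libraries together. Hspb1 (Hsp25), a classical heat-inducible small heat shock protein, had 16 counts over all libraries, while the heat-inducible Hspa1a was at 97.7 CPM or more in each. Tested members varied little: the median SD of log2 CPM over the 12 libraries was 0.171 for them and 0.268 for all 14413 tested genes, and 43 of 58 members lay below the second value. Many members are abundant, with 19 of 58 above a mean of 100 CPM.

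No member passed the test in any comparison. Each comparison used edgeR's quasi-likelihood test with Benjamini-Hochberg adjustment over all 14413 tested genes, and the threshold for a call was an adjusted p below 0.05. For AlloTem against SynTem 0 of 58 members were called, beside 0.167% of all tested genes. For AlloTem against DC only 0 of 58 were called beside 1.76% of all, for SynTem against DC only 0 beside 0.0902%, for LPS against DC only 0 beside 0.0%, and for AlloTem against LPS 0 beside 0.451%. With backgrounds this low, a count of 0 among 58 genes is near the background in each comparison. DESeq2 called 1 member for AlloTem against SynTem (1.72%, all genes 2.21%), 2 for AlloTem against DC only (3.45%, all genes 4.69%) and 1 for SynTem against DC only (1.72%, all genes 1.76%). It called 0 for LPS against DC only (all genes 0.0694%) and 0 for AlloTem against LPS (all genes 2.0%), and limma voom called 0 members in each comparison. Without adjustment, edgeR's p was under 0.05 for 8 members in AlloTem against SynTem (13.8%, all genes 9.58%), 9 in AlloTem against DC only (15.5%, all genes 12.7%) and 1 in SynTem against DC only (1.72%, all genes 8.24%). The same count was 6 in LPS against DC only (10.3%, all genes 3.68%), namely Hspa1a, Hspa1b, Dnajb2, Dnajb5 and Dnaja1, which were higher, and Dnajc16, which was lower, and 2 in AlloTem against LPS (3.45%, all genes 6.5%). These comparisons share libraries, and so are not independent of each other.

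The estimates were precise enough to bound most members. In AlloTem against SynTem the 95% interval of the fold change lay within 2-fold in either direction for 50 of 58 members (86.2%), and for 63.6% of all tested genes. The number was 49 for AlloTem against DC only (all genes 63.7%) and 53 for SynTem against DC only (all genes 65.0%). It was 51 for LPS against DC only (all genes 66.3%) and 52 for AlloTem against LPS (all genes 66.0%). In all 5 comparisons 47 of 58 members were within 2-fold, a count not made for all genes. The members not bounded this way were mostly of low level or variable: Dnaja4, Dnajb4, Dnajc28 and Dnajc6 in all 5 comparisons, Dnajb2 in 4, the Hspa1a and Hspa1b pair in 3, Hspb11 in 2, and Hspb6, Dnajb13 and Dnajc12 in 1. By direction, 37 of 58 members were higher in AlloTem than in SynTem (median log2 difference 0.09, all genes -0.01), and 20 of 58 were higher in SynTem than in DC only (median -0.07, all genes 0.00). For AlloTem against DC only 31 of 58 were higher (median 0.03), and for LPS against DC only 36 of 58 (median 0.04).

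**Figure D2:**
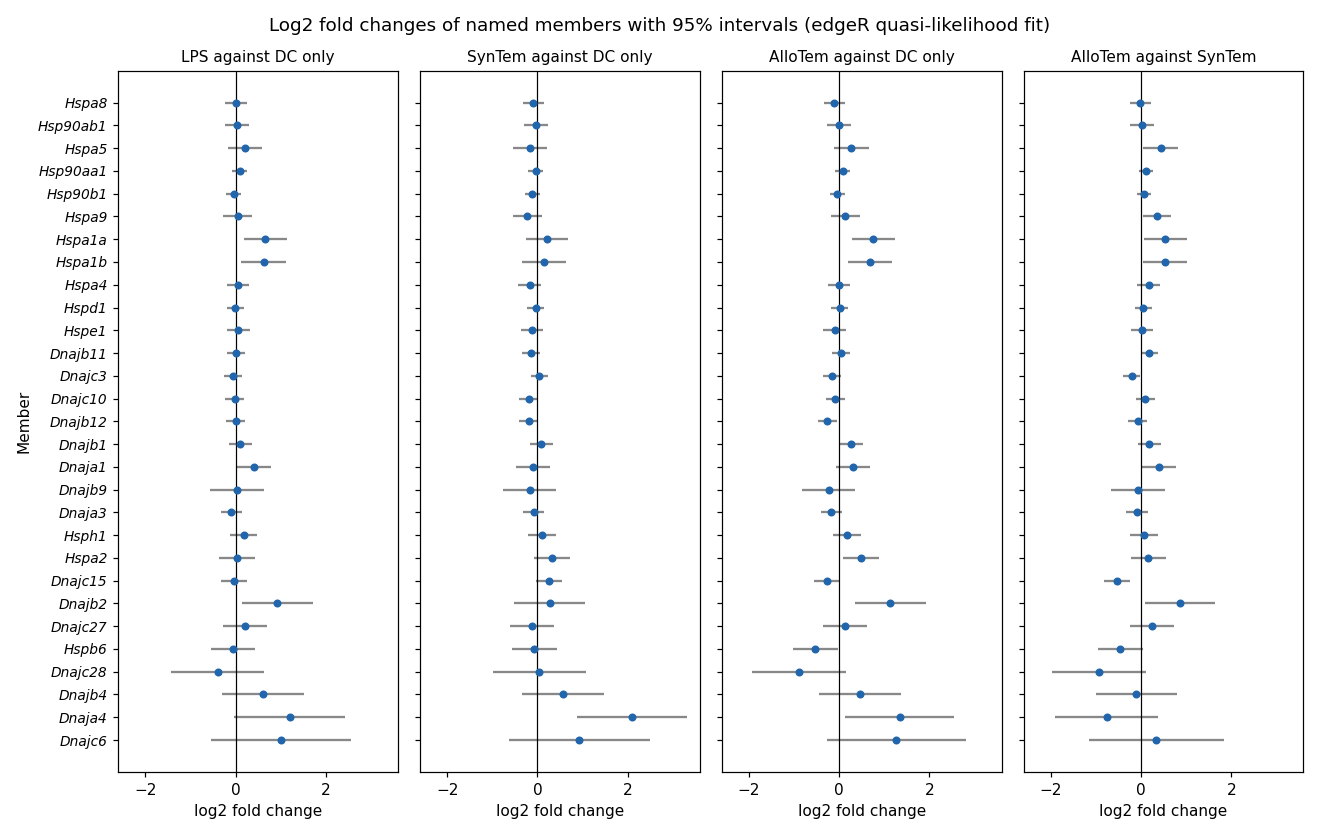
Log2 fold change of 29 named members from edgeR in 4 comparisons, with points at the estimate and lines as 95% intervals; the vertical line is no difference. Most intervals are narrow and cross 0, and Dnaja4 in SynTem against DC only has the largest estimate, 2.10, with a wide interval.

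The inducible Hsp70 genes were higher on average with LPS and AlloTem than in DC only, without passing the test. Hspa1a (ENSMUSG00000091971, chr17:34969190-34972156, minus strand, GRCm38) was at 114.5, 97.7 and 165.4 CPM in DC only 1 to 3 and at 223.3, 205.2 and 165.2 CPM in LPS 1 to 3. It was at 175.8, 128.1 and 133.6 CPM in SynTem and at 231.9, 236.2 and 167.7 CPM in AlloTem. The AlloTem libraries thus lay above those of DC only, the nearest by a small margin in batch 3, and overlapped those of SynTem and LPS. The mean rank of cultures was the same for Hspa1b, with 108.4, 91.5 and 152.1 CPM in DC only, 213.1, 175.9 and 151.1 in LPS, 164.1, 112.3 and 111.1 in SynTem, and 199.6, 208.8 and 155.0 in AlloTem.

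Against DC only, the log2 difference of Hspa1a in AlloTem was 0.75 ± 0.22 (SE, 95% interval 0.28 to 1.23, 1.68-fold; edgeR quasi-likelihood adjusted p = 0.139, DESeq2 0.0282, all alternatives 0.0282 to 0.495). Within batches, the log2 ratio of AlloTem to DC only was 1.01, 1.27 and 0.02 in batches 1 to 3, so batch 3 showed almost no difference. In LPS the difference from DC only was 0.65 ± 0.22 (edgeR adjusted p = 0.999), with ratios of 0.96, 1.07 and 0.00 by batch, and again batch 3 showed none. Against SynTem it was 0.54 ± 0.22 in AlloTem (edgeR adjusted p = 0.454), with ratios of 0.40, 0.88 and 0.33. Over the alternatives run that difference was 0.27 to 0.70 for Hspa1a and 0.20 to 0.75 for Hspa1b, lowest without SynTem 2 and 3. The LPS difference from DC only was 0.41 to 0.90 and 0.40 to 0.85, lowest with batch as a term and without DC only 2 and SynTem 2. The summed level of 25 immediate early genes, which mark recent stimulation or handling of cells, also moved with culture and batch: it was 2660 to 4492 CPM in DC only, 4366 to 7216 in LPS, 2510 to 6318 in SynTem and 4799 to 8716 in AlloTem, and the part of this in the Hspa1a values was not tested. Many reads of 50 bases cannot be assigned between the copies: 58.8% of the 50-base windows of Hspa1a also occur in Hspa1b, and the counting rule for such reads is not given in the sources used here. The level of each copy is therefore uncertain, and the pair, counted as 2 members throughout, is not 2 independent measurements.

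**Figure D3:**
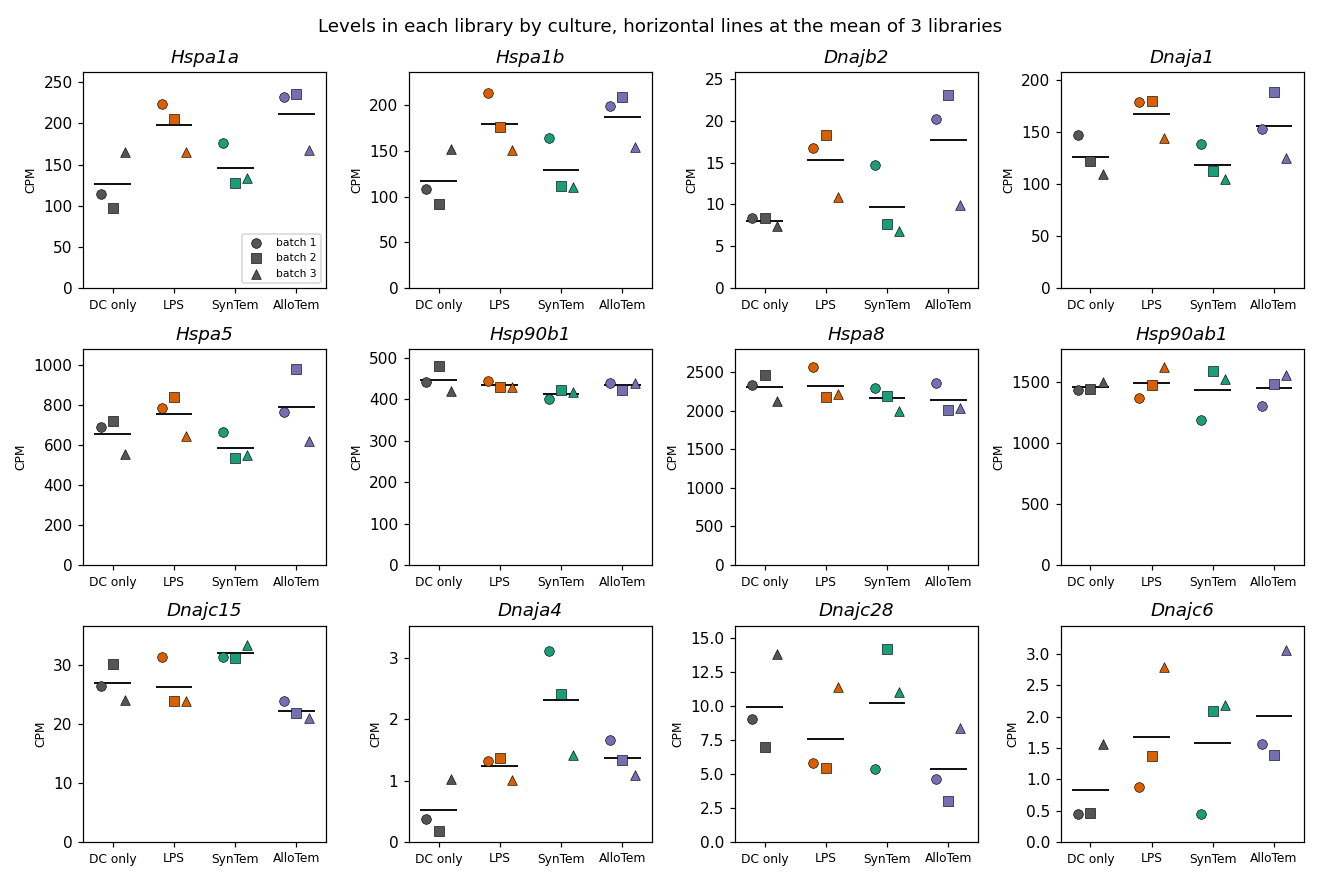
CPM of 12 members in each library by culture, on a linear axis; circles, squares and triangles are batches 1, 2 and 3, and lines are means of 3 libraries. Hspa1a and Hspa1b are highest in LPS and AlloTem except for the batch 3 triangles, and Dnajc15 in AlloTem, from 20.9 to 23.9, lies below SynTem, from 31.2 to 33.3.

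Among cytosolic J proteins, Dnajb2 (ENSMUSG00000026203, chr1:75236406-75245692, plus strand), which carries ubiquitin-interacting motifs, had the largest estimates above 10 CPM in LPS and AlloTem against DC only. It was at 8.39, 8.40 and 7.45 CPM in DC only 1 to 3, at 16.7, 18.3 and 10.9 in LPS, at 14.7, 7.66 and 6.88 in SynTem and at 20.2, 23.1 and 9.96 in AlloTem. Every LPS and AlloTem library lay above every DC only library, and the SynTem libraries spanned them. The log2 difference from DC only was 1.14 ± 0.36 in AlloTem (2.20-fold, 95% interval 0.35 to 1.92; edgeR adjusted p = 0.18, DESeq2 0.046) and 0.92 ± 0.36 in LPS (edgeR adjusted p = 0.999). Over the alternatives run, the edgeR, voom and DESeq2 adjusted p for AlloTem against DC only ranged from 0.0244 to 0.497. AlloTem lay above SynTem by 0.87 ± 0.35 (edgeR adjusted p = 0.47), and by 0.27 to 1.29 over the alternatives, lowest without SynTem 2 and 3. The 5 libraries with the highest Dnajb2 level, AlloTem 1 and 2, LPS 1 and 2 and SynTem 1, also had the 5 highest sums of the immediate early genes, whose part in the result was not tested.

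Dnaja1, a widely expressed cochaperone of Hspa8, was at 146.8, 122.1 and 109.5 CPM in DC only and at 178.1, 179.4 and 144.0 in LPS. It was at 137.8, 112.6 and 104.4 CPM in SynTem and at 152.3, 187.8 and 124.8 in AlloTem. All groups overlapped DC only, and batch 3 was the lowest of the 3 libraries in each group. The log2 difference from DC only was 0.41 ± 0.17 in LPS (edgeR adjusted p = 0.999) and 0.30 ± 0.17 in AlloTem (edgeR adjusted p = 0.545), which became 0.13 without AlloTem 2. Over the alternatives the difference was 0.29 to 0.53 in LPS and 0.13 to 0.44 in AlloTem. Dnajb1 (Hsp40), the heat-inducible partner of Hsp70, was at 50.5 to 52.5 CPM in DC only and at 55.5 to 69.3 in AlloTem, a log2 difference of 0.27 ± 0.12 (edgeR adjusted p = 0.356).

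Dnaja4 (ENSMUSG00000032285, chr9:54698873-54716315, plus strand) had the smallest p for SynTem against DC only, at a low level. It was at 0.376, 0.171 and 1.03 CPM in DC only, at 1.32, 1.36 and 1.01 in LPS, at 3.12, 2.41 and 1.42 in SynTem and at 1.66, 1.34 and 1.09 in AlloTem. All SynTem libraries lay above all DC only libraries. The log2 difference was 2.10 ± 0.55 (95% interval 0.88 to 3.32; edgeR adjusted p = 0.243, DESeq2 0.0205, all alternatives 0.0205 to 0.854), with ratios of 2.05, 2.11 and 0.33 in batches 1 to 3. T cell markers were also highest in SynTem, summing to 341.0, 734.8 and 592.2 CPM in SynTem 1 to 3, whereas Dnaja4 was highest in SynTem 1; their part in the result was not tested. Of the exon bases of Dnaja4, 44.1% lie opposite Wdr61, and with the strand setting not given in the sources used here, reads of the 2 genes cannot be told apart there.

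Dnajb12, a J protein anchored in the membrane of the endoplasmic reticulum, had the smallest p for AlloTem against LPS. It was at 69.0, 66.8 and 64.7 CPM in DC only, 69.4, 60.3 and 71.1 in LPS, 57.1, 55.0 and 63.4 in SynTem and 58.9, 50.8 and 56.98 in AlloTem. AlloTem lay below DC only and below LPS in every library, by log2 differences of -0.27 ± 0.10 (edgeR adjusted p = 0.247) and -0.27 ± 0.10 (edgeR adjusted p = 0.475). Dnajb4, a cytosolic J protein, was high in 3 of the 4 libraries of batch 1: it was at 12.1, 11.1 and 12.5 CPM in LPS 1, SynTem 1 and AlloTem 1 and at 4.40 to 7.77 CPM in the 9 others. Sums of other cells' markers were highest in the same 3 libraries: macrophage markers were at 290.8, 355.3 and 316.6 CPM there and at most 178.8 CPM elsewhere, and NK cell markers at 948.5, 733.4 and 944.5 CPM and at most 449.1 CPM. Their part in the Dnajb4 values was not tested.

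The constitutive cytosolic chaperones were nearly level. Hspa8 was at 2337, 2470 and 2124 CPM in DC only, 2572, 2186 and 2216 in LPS, 2298, 2189 and 2004 in SynTem, and 2363, 2019 and 2041 in AlloTem. Hsp90ab1 was at 1435, 1444 and 1506 CPM in DC only, 1373, 1479 and 1623 in LPS, 1194, 1589 and 1526 in SynTem, and 1305, 1487 and 1563 in AlloTem. The groups overlapped for both. In AlloTem against DC only the log2 difference was -0.11 ± 0.11 for Hspa8 (95% interval -0.34 to 0.12) and -0.01 ± 0.12 for Hsp90ab1 (-0.28 to 0.26). For Hsp90aa1, the inducible Hsp90, all libraries lay between 467.4 and 540.8 CPM, and AlloTem lay above SynTem in every library by 0.12 ± 0.07 (95% interval -0.04 to 0.28, edgeR adjusted p = 0.653). Among the Hsp110 genes, exchange factors of Hsp70, Hspa4 was at 260.3 to 356.6 CPM and Hsph1 at 37.2 to 51.1 CPM, with log2 differences of 0.00 ± 0.14 for Hsph1 in AlloTem against LPS and 0.18 ± 0.14 in AlloTem against DC only. Hspa2, a Hsp70 known best from testis, was at 11.5 to 14.9 CPM in DC only, 13.0 to 15.3 in LPS, 14.7 to 18.3 in SynTem and 16.0 to 24.0 in AlloTem. AlloTem lay above LPS in every library by 0.45 ± 0.18 (edgeR adjusted p = 0.635), and by 0.23 to 0.55 over the alternatives, lowest without AlloTem 2. Exons of Hspa8 and Hsp90aa1 share 39.4% and 47.5% of their 50-base windows with other annotated genes, among them pseudogenes, so their levels are less certain than the count alone would give.

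In the endoplasmic reticulum, Hspa5 was at 689.7, 719.1 and 555.2 CPM in DC only, at 782.8, 837.6 and 646.1 in LPS, at 665.9, 535.4 and 548.1 in SynTem and at 763.2, 979.2 and 621.5 in AlloTem. The groups overlapped, and AlloTem 2 was the highest library. The log2 difference of AlloTem from SynTem was 0.43 ± 0.18 (edgeR adjusted p = 0.459) and from DC only 0.27 ± 0.18 (edgeR adjusted p = 0.617). The second became 0.08 without AlloTem 2, 0.16 without DC only 3 and 0.42 without AlloTem 3, and the first became 0.24 without AlloTem 2 and 0.25 without SynTem 2 and 3. Over all alternatives the first was 0.24 to 0.59 and the second 0.08 to 0.42. In LPS the difference from DC only was 0.21 ± 0.18, which became 0.10 without DC only 3 and 0.13 without LPS 2 (0.10 to 0.31 over all alternatives). Hsp90b1 stayed within 401.1 to 479.4 CPM in the 12 libraries, with a log2 difference of -0.04 ± 0.07 in AlloTem against DC only (95% interval -0.21 to 0.12). Among J proteins of this compartment, Dnajb11 (ERdj3, which feeds clients to BiP) was at 83.4 to 109.7 CPM over the 12 libraries. Dnajc3 (p58IPK) was at 117.6 to 155.7 and Dnajc10 (ERdj5, a disulfide reductase) at 115.0 to 149.9 CPM. Dnajc3 was at 117.6 to 133.9 CPM in AlloTem and at 135.6 to 150.2 in DC only. In AlloTem against SynTem the log2 difference was 0.19 ± 0.09 for Dnajb11, -0.21 ± 0.09 for Dnajc3 and 0.10 ± 0.10 for Dnajc10 (edgeR adjusted p = 0.532, 0.488 and 0.787). Dnajb9 (ERdj4) varied more, from 21.5 to 43.0 CPM, with overlap between all groups and a log2 difference of -0.24 ± 0.27 in AlloTem against DC only.

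Among mitochondrial members, Dnajc15 (ENSMUSG00000022013, chr14:77820681-77875125, minus strand), an inner-membrane J protein known to restrain complex I, had the smallest p of all members for AlloTem against SynTem. It was at 31.4, 31.2 and 33.3 CPM in SynTem and at 23.9, 21.8 and 20.9 in AlloTem. It was at 26.5, 30.1 and 24.1 CPM in DC only and at 31.3, 23.8 and 23.8 in LPS. AlloTem lay below SynTem and DC only in every library, and SynTem lay above DC only in every library. The log2 difference of AlloTem from SynTem was -0.53 ± 0.13 (95% interval -0.82 to -0.23; edgeR adjusted p = 0.162, DESeq2 0.0235, all alternatives 0.0235 to 0.626), with ratios of -0.38, -0.51 and -0.66 in batches 1 to 3. T cell markers summed to 174.0 to 329.7 CPM in AlloTem and to 341.0 to 734.8 in SynTem, and their part in this difference was not tested. Against DC only the differences were -0.28 ± 0.13 in AlloTem and 0.25 ± 0.13 in SynTem (edgeR adjusted p = 0.424 and 0.662).

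Hspa9 was at 281.6, 281.9 and 241.8 CPM in DC only, at 213.7, 235.8 and 240.5 in SynTem and at 252.1, 359.3 and 270.7 in AlloTem. AlloTem lay above SynTem in every library, by 0.35 ± 0.14 (edgeR adjusted p = 0.467). Plasmacytoid DC markers separated the same groups, with sums of 487.7 to 691.7 CPM in AlloTem and 379.8 to 410.9 CPM in SynTem. Their 4 highest sums were in DC only 1 and 2, LPS 2 and AlloTem 2, which also held the 4 highest levels of Hspa9, and their part in the Hspa9 values was not tested. The chaperonin pair, whose genes share the promoter site above, stayed within 122.1 to 144.7 CPM for Hspd1 (Hsp60) and 46.2 to 65.3 CPM for Hspe1 (Hsp10). Dnaja3 (Tid1), a mitochondrial J protein, was at 31.6 to 42.3 CPM. The log2 difference of Hspd1 in AlloTem against DC only was 0.02 ± 0.09 (95% interval -0.17 to 0.20), although 42.1% of its 50-base windows occur elsewhere, mostly in the pseudogene Hspd1-ps3. Of the small heat shock genes only Hspb6 (Hsp20) and Hspb11 were tested. Hspb6 was at 5.88 to 9.70 CPM in DC only, 6.35 to 7.66 in LPS, 6.69 to 7.47 in SynTem and 4.42 to 6.56 in AlloTem, with a log2 difference of -0.53 ± 0.23 in AlloTem against DC only (edgeR adjusted p = 0.358).

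Members whose libraries did not overlap between 2 groups were about as frequent as among all genes. AlloTem lay above SynTem for 5 members (8.62%, all genes 7.09%), namely Hspa9, Dnajb6, Dnajb11, Hsp90aa1 and Hsp90b1, and below for 3 (5.17%, all genes 5.94%), Dnajc15, Dnajc18 and Hspb6. AlloTem lay above DC only for 7 members (12.1%, all genes 9.35%), Hspa1a, Hspa1b, Dnajb2, Hspa2, Dnaja4, Dnajb1 and Dnajb5, and below for 3 (5.17%, all genes 7.82%), Dnajb12, Dnajc15 and Dnajc3. SynTem lay above DC only for 2 (3.45%, all genes 7.42%), Dnaja4 and Dnajc15, and below for 5 (8.62%, all genes 6.83%), Dnajb12, Dnajc7, Dnajb6, Hspa9 and Hspa4. LPS lay above DC only for 3 (5.17%, all genes 5.36%), Dnajb2, Dnajb5 and Hspa14, and below for 1 (1.72%, all genes 4.51%), Dnajc16. AlloTem lay above LPS for 2 (3.45%, all genes 5.52%), Hspa2 and Dnajc12, and below for 1 (1.72%, all genes 4.54%), Dnajb12. Dnajb5, Dnajb6, Dnajc7, Dnajc12, Dnajc16, Dnajc18 and Hspa14 fell outside the rule for named genes and were chosen after their values were seen.

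Values were also compared between batches, with culture in the model. For this edgeR called 0 of 58 members for batch 3 against batches 1 and 2 (all genes 0.0%) and 0 for batch 2 against batch 1 (all genes 0.00694%). Unadjusted p was under 0.05 for 17 members (29.3%, all genes 27.6%) in batch 3, of which 13 were lower (22.4%, all genes 13.4%) and 4 higher (6.9%, all genes 14.2%), and for 7 (12.1%, all genes 16.2%) in batch 2 against 1. DESeq2 called 7 members for batch 3 (12.1%, all genes 13.8%) and 1 for batch 2 (1.72%, all genes 3.82%). Dnajc27, a Rab-like GTPase with a J domain, was at 11.6 to 13.0 CPM in batch 3 and at 13.2 to 19.7 in the 8 other libraries, without overlap, by -0.45 ± 0.11 (edgeR adjusted p = 0.0609). Hspa5 was at 548.1 to 646.1 CPM in batch 3 and at 665.9 to 979.2 in the others except SynTem 2, at 535.4 CPM. Dnaja1 and Dnajb2 were lower in batch 3 by -0.33 ± 0.08 and -0.66 ± 0.19 (edgeR adjusted p = 0.0656 and 0.0764).

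Some members went the other way. Dnajc28 was at 8.36 to 14.2 CPM in the 5 libraries with Y-linked transcripts and at 3.03 to 9.01 CPM in the 7 others, and Dnajc6 was at 1.57 to 3.07 CPM in batch 3 and at 0.438 to 2.09 in the others, the highest being SynTem 2. Their log2 differences for batch 3 were 0.79 ± 0.26 and 1.25 ± 0.32 (edgeR adjusted p = 0.0972 and 0.065). The number of calls for batch 3 turned on single libraries. Without SynTem 2 edgeR called 14 of 58 members (24.1%, all genes 21.6%), and without the SynTem libraries 10 (17.2%, all genes 20.3%). Without DC only 2 and SynTem 2 it called 11 (19.0%, all genes 19.8%), and without SynTem 3 it called 2 (3.45%, all genes 8.27%). With the Y-linked level in place of the batch number, edgeR called 10 members (17.2%, all genes 17.8%). None of these shares of members lay far above that of all genes. Of 25 immediate early genes 2 were higher in batch 3, with a median log2 difference of -0.50, and their part in the members' values was not tested. Batch 3 and the Y-linked level cannot be told apart except through SynTem 2.

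**Figure D4:**
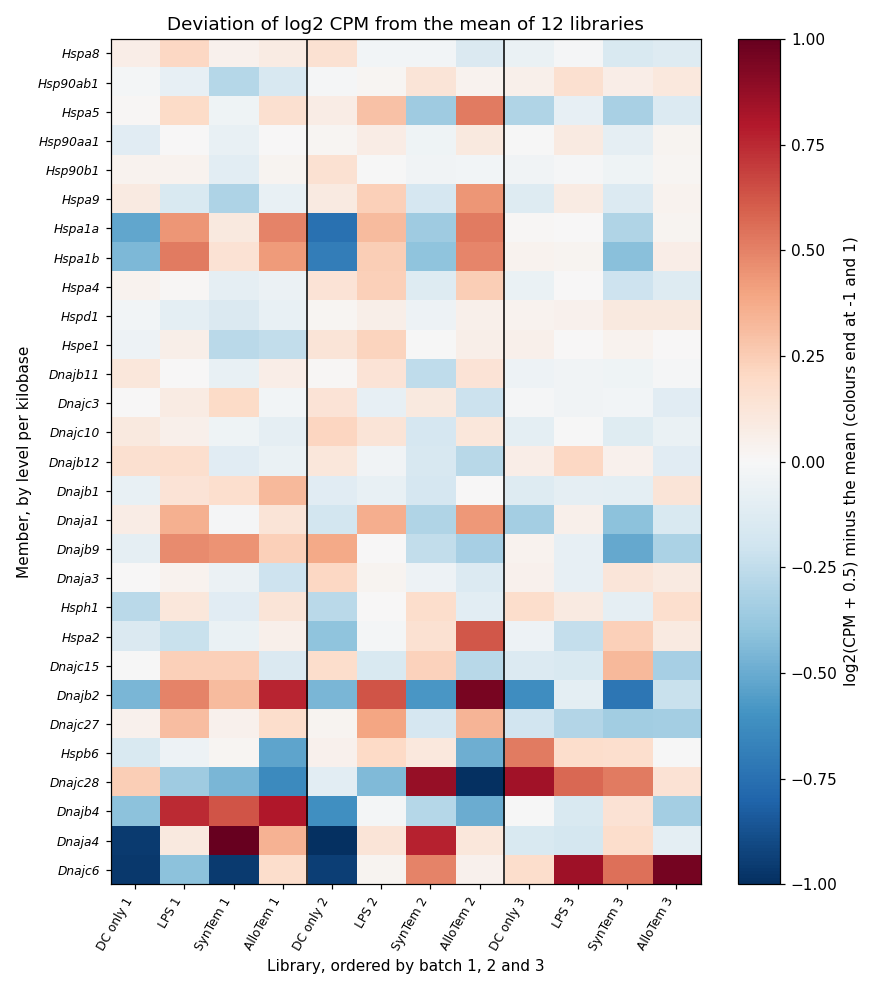
Heatmap of log2(CPM + 0.5) minus the mean over 12 libraries for named members, libraries ordered by batch; colours end at -1 and 1. Hspa5 and Dnajc27 are below their means in batch 3 and SynTem 2, where Dnajc28 is above.

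Across the 12 libraries, log2 CPM of Hspa1a and Hspa1b correlated at a Pearson r of 0.99. These copies have much sequence in common, and how reads matching both were counted is not given in the sources used here. The part of such reads in the correlation was not tested. Hspa5 correlated at 0.92 with Dnaja1 and at 0.86 with Dnajb2, Dnaja1 at 0.89 with Dnajb2, and Hspa1a at 0.85 with Dnajb2. After the group mean was taken from each library the same pairs were at 0.98, 0.91, 0.87, 0.87 and 0.65. Those pairs were picked for high positive values, and other pairs were as strong in either direction. Hspa5 was at 0.87 with Dnajc27 and at -0.91 with Dnajc28, and Dnajb2 at -0.89 with Dnajc28. After group means were taken out these were at 0.89, -0.95 and -0.90. All are descriptions over 12 libraries that share batch and culture. Of the named members Dnajc3 was most like Dnajc15, at 0.79. After group means were taken out, Dnajc15 was at 0.57 with Dnajc3 and higher with Hspa8, at 0.76, and Hsp90b1, at 0.68.

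Other genes of the pathway were counted from lists. Of the heat shock factors and their regulators 4 of 7 were tested and 0 called in any comparison, and Hsf1, the master factor, was at 41.9 to 58.0 CPM. Hsf2 was at 11.33 to 16.46 CPM in DC only, 13.06 to 17.34 in LPS, 17.79 to 20.89 in SynTem and 16.52 to 18.99 in AlloTem. Its log2 difference from DC only was 0.45 ± 0.17 in SynTem and 0.36 ± 0.16 in AlloTem (edgeR adjusted p = 0.454 and 0.3995). None of 20 Hsp90 cochaperones, 12 nucleotide exchange and inhibitor proteins of Hsp70, 14 genes of the chaperonin TRiC and prefoldin, 4 tested J domain proteins outside the rule and 7 mitochondrial chaperones and proteases was called by edgeR in the 7 comparisons. In AlloTem against SynTem 14 of 14 TRiC and prefoldin genes were above 0 (median log2 difference 0.17), beside 48.49% of all genes. So were 12 of 13 genes of endoplasmic reticulum folding, 15 of 20 Hsp90 cochaperones and 8 of 12 Hsp70 exchange and inhibitor proteins. So were 5 of 7 mitochondrial genes, but only 1 of 4 heat shock factor genes and 0 of 4 J domain proteins. TRiC and prefoldin genes were above 0 for 2 of 14 in SynTem against DC only (median -0.10, all genes 50.44%). In LPS against DC only 13 of 14 were above 0 (all genes 49.99%). In AlloTem 11 of 14 were above 0 against DC only and 6 of 14 against LPS. Of 13 tested genes of endoplasmic reticulum folding, 1 rose in AlloTem against DC only and against LPS: Xbp1, a transcription factor of the unfolded protein response, was at 297.9 ± 42.6 CPM in AlloTem, 175.7 ± 13.9 in DC only and 168.0 ± 22.8 in LPS (SD, n = 3 each), log2 differences of 0.76 ± 0.12 and 0.83 ± 0.12 (edgeR adjusted p = 0.0162 and 0.0185). Members known as genes of the same response, Hspa5, Hsp90b1 and Dnajb9, did not pass the test, with values above. Of 25 immediate early genes, edgeR called 4 higher in AlloTem than in DC only, Ier3, Fosl2, Egr3 and Egr2 (all genes 1.76%, either direction). It called 2 higher in AlloTem than in LPS (all genes 0.451%) and 1 than in SynTem (all genes 0.167%).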

How the data were processed

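RNA was sequenced from 12 libraries (TruSeq RNA, single-end 50-base reads on a NextSeq, per the labels' protocols). The authors deposited raw counts per gene for 57009 identifiers, without normalization, and a second table with a batch number. The genome build was mm10, per the submitters' processing notes, and for the aligner, counter, strand setting and annotation nothing is given in the sources used here. Symbols, gene types and exons came from GENCODE M21 (52028 identifiers matched).

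Genes were kept with filterByExpr (minimum count 10, minimum total 15). TMM-scaled counts were fitted with edgeR 4.0.16 (R 4.3.3) by robust quasi-likelihood, with 1 mean per group over 12 libraries for cultures and with group plus batch for batches, and p-values were adjusted over 14413 genes. For ratios within batches 0.5 CPM was added. A standard error is the log2 difference over the root of F. The fitting code was run on simulated counts with planted differences. Those counts held no correlation between libraries of the same number, so the run checked the code and not whether the p-values hold here.

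The members, lists, tests and naming rule were chosen with earlier results of these data known. Named were members called, the 3 smallest p per comparison, fixed members by role, and the 5 highest levels per kilobase and widest spreads. Alternatives were RLE and upper-quartile scaling, DESeq2 1.42.0, limma 3.58.1 voom, other filters, fits to only the 6 libraries at hand, a block for the batch number, a Y-linked covariate and left-out libraries. The deposited table gives the number as a batch, so it may pair the libraries. The main culture fits hold no batch term, so their p-values, standard errors and intervals do not use such a pairing. As a check, deviations from group means correlated at a median of 0.247 over 18 same-number pairs (12 above 0.1, range -0.249 to 0.632) and at -0.201 over other pairs. Library totals of 13903574 to 21861156 counts set the counting precision.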

Additional observations from a re-analysis of the deposited data

How the results depend on the processing

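Single-gene results kept their direction under the alternatives counted: of 646 values for 28 results, 0 reversed. Of these values 625 kept their side of the threshold, and 21 passed it where edgeR's main test did not. The fit with the Y-linked level in place of the batch number was left out of this count. Most of the 28 results were picked by the smallest p in these same data. The alternatives reuse the same libraries, so reversals were unlikely from the start and the count is no independent support. DESeq2 called 1 member for AlloTem against SynTem, 2 for AlloTem against DC only, 1 for SynTem against DC only, 7 for batch 3 and 1 for batch 2 against batch 1, where edgeR called 0 in each. With a Y-linked covariate edgeR called 2 members for AlloTem against DC only, Dnajb2 and Dnajc28, beside 604 of all 14413 genes. For batch 3 it called 11 without DC only 2 and SynTem 2, 10 without the SynTem libraries, and 10 with the Y-linked level in place of the batch number, an alternative chosen after seeing the data. Leaving out each library in turn gave 0 to 1 members for AlloTem against DC only (Dnajb2, without AlloTem 3, beside 323 of all 14860 genes). It gave 0 to 14 for batch 3 (14 without SynTem 2, beside 3207 of all 14821 genes). For batch 2 against batch 1 it gave 0 to 2 (Dnajb4 and Dnajb9, without DC only 1, beside 664 of all 14928 genes), and 0 in the other comparisons. The replicate block, with the batch number as a term, called 0 members in all 5 culture comparisons and so changed no call of a member. Calls among all 14413 genes did change with it. They were 78 for AlloTem against SynTem (24 in the main fit), 420 for AlloTem against DC only (253) and 21 for SynTem against DC only (13). For LPS against DC only they were 0 (0), and for AlloTem against LPS 136 (65). The causes of these changes were not tested. Intervals were wide for some members of low level: Dnaja4, at an estimated 4.28-fold in SynTem against DC only, was not called by edgeR.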
